A study of Mus musculus with 9 samples.

Results

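Mouse pancreatic stellate cells that carried a guide RNA against Hif1a and were kept at 0.5% oxygen for 48 h were compared with cells that carried a control guide and were kept at 20% oxygen. The members were the 3 libraries of the first kind (HIF1a-ko hypoxia) and the 3 libraries of the second kind (R26 normoxia), which were taken by their labelled guide and oxygen level and make up 6 of the 9 libraries of the study. The other 3 libraries, cells with the control guide at 0.5% oxygen for 48 h (R26 hypoxia), served to sort each difference into one that was also present after low oxygen alone and one that was not. All cells were of the C57BL6 strain, had become immortal by spontaneous outgrowth, and were transduced with lentiviral Cas9 and 1 guide, so that the control cells also carried Cas9 and a guide, here against the R26 locus. They were selected with puromycin and kept as polyclonal pools in DMEM with 10% serum, so a pool can hold cells in which the target gene stayed intact. The quantity measured was poly-A RNA, counted per gene. Oxygen and guide differed together in this comparison, and no Hif1a-guide cells kept at 20% oxygen were analysed here, so the 2 factors cannot be told apart in any value that follows.

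Stellate cells are fibroblast-like cells of the pancreas. They store retinoids when quiescent, and they make collagen and other matrix when activated. HIF-1 is a transcription factor made of an oxygen-labile alpha subunit, encoded by Hif1a, and a stable partner, encoded by Arnt. When oxygen is present, prolyl hydroxylases of the Egln family mark the alpha subunit, the Vhl ligase binds the mark and the protein is degraded. When oxygen is low, the subunit escapes this mark and raises genes for glycolysis, lactate export, vessel growth and collagen hydroxylation. A second alpha subunit, encoded by Epas1, is regulated in the same way and shares part of these targets.

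Hif1a RNA was read at 194, 192 and 225 scaled counts (CPM, with the libraries set to an equal effective size) in R26 normoxia 1 to 3, whereas HIF1a-ko hypoxia 1 to 3 had 123, 117 and 125 CPM. Every HIF1a-ko library lay below every normoxia library, and R26 hypoxia, at 178, 169 and 207 CPM, overlapped normoxia and lay above every HIF1a-ko library. The log2 fold change of HIF1a-ko hypoxia over R26 normoxia was -0.74 ± 0.09 (SE, n = 3 and 3, adjusted p = 9.95e-05). RNA reads do not show how much protein remained. Epas1 was scarce, at 4.72, 4.2 and 1.86 CPM in R26 normoxia and 1.48, 5.4 and 5.19 CPM in HIF1a-ko hypoxia, and these values overlapped (log2 fold change 0.16 ± 0.65, adjusted p = 0.879). Its sign turned when normoxia 3, HIF1a-ko 2 or HIF1a-ko 3 was left out. Arnt reached at most 113 CPM in normoxia and 104 CPM in HIF1a-ko hypoxia, with a log2 fold change of -0.10 ± 0.04 that missed the threshold (adjusted p = 0.0858).

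The libraries held 43837809 to 107840223 counts, and 1 library of each group (normoxia 3, R26 hypoxia 3 and HIF1a-ko 1) had over 80000000 and stood apart from the others on the leading axis of variation. This split was seen in the data and is no group of the study, and it is spread evenly over the groups. Fibroblast and stellate markers (12 genes, among them Vim, Col1a1 and Dcn) summed to 17073 to 18772 CPM in normoxia and 13273 to 13748 CPM in HIF1a-ko hypoxia, and 2 of 12 were called higher and 6 lower. Des, a filament gene of stellate cells, passed the filter at a low level, and Lrat, the retinol-storing enzyme, did not pass it. Markers of other cell types were low, and several differed between the deeper and the shallower libraries. Adipocyte markers (0 of 7 called) summed to 0.709 CPM in normoxia 3 and 0.635 CPM in HIF1a-ko 1, against 62.6 to 134 CPM in the 4 shallower libraries. Leukocyte markers (0 of 10 called) summed to 15.8 and 20 CPM in those 2 libraries and to 69.1 to 116 CPM in the other 4. With the shallower libraries only, as with depth as a term, 2 adipocyte markers were lower and 3 leukocyte markers higher. Epithelial markers (0 of 10 called) summed to 54 to 149 CPM in normoxia and 56.9 to 140 CPM in HIF1a-ko hypoxia, and 1 or 2 were higher in these fits. Endothelial markers (3 of 9 higher, 1 lower) summed to 11.3 to 19.8 CPM against 13.9 to 25.6 CPM, and the 3 became 1 without normoxia 3. Of 12 acinar and islet markers, 3 were at 0 in all 9 libraries and 4 could be tested, of which 2 were lower, and their sum was 10.7 to 15.2 CPM against 4.52 to 7.41 CPM. The part of these markers in the results below was not tested. In bulk RNA, fewer cells that express a gene and less RNA per cell cannot be told apart.

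Of 18211 genes tested, 7657 (42%) differed between HIF1a-ko hypoxia and R26 normoxia at an adjusted p under 0.05, and these are the genes named as called in what follows. Of all genes tested, 19.9% were called higher in HIF1a-ko hypoxia (3628 genes) and 22.1% lower (4029 genes). The HIF1a-ko and normoxia libraries did not overlap for 53.2% of the genes tested. Most differences were small, since 9.61% of the genes tested were called with a log2 fold change of at least 1 in size, of which 1012 were higher and 738 lower. The median log2 fold change of all genes tested was -0.01, and every list below should be read against these shares. For comparison, R26 hypoxia differed from the same normoxia libraries in 4697 genes, 13.1% of those tested being higher and 12.7% lower.

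The called genes were sorted by what low oxygen did in control cells. A change counts as kept from hypoxia when R26 hypoxia also differed from R26 normoxia in the same direction. This held for 842 higher genes (4.62% of those tested) and 960 lower genes (5.27%). A change counts as not seen in R26 hypoxia when R26 hypoxia was not called against normoxia and HIF1a-ko hypoxia also differed from R26 hypoxia in the same direction. This held for 1939 higher genes (10.6%) and 1986 lower genes (10.9%), the largest share of the called genes in each direction. Another set ran opposite to R26 hypoxia, with 473 genes (2.6%) above normoxia that R26 hypoxia lowered and 570 genes (3.13%) below normoxia that R26 hypoxia raised. The remaining 374 higher genes (2.05%) and 513 lower genes (2.82%) were called against normoxia in HIF1a-ko hypoxia only but were not called against R26 hypoxia. In the other direction, 980 genes (5.38%) were higher in R26 hypoxia and 872 (4.79%) lower without a call in HIF1a-ko hypoxia against normoxia, and HIF1a-ko hypoxia differed from R26 hypoxia back towards normoxia in 798 and 691 of them. Both contrasts share the 3 R26 normoxia libraries, so the classes are a description and their counts carry no test.

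**Figure D1:**
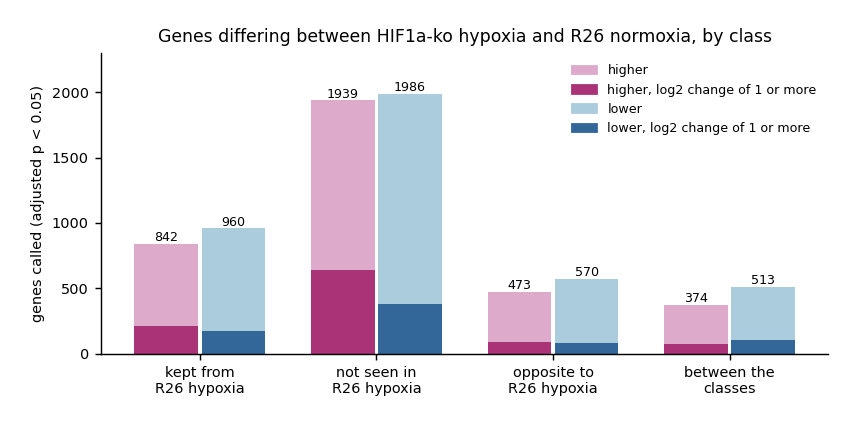
Number of genes (y axis) called higher or lower in HIF1a-ko hypoxia than in R26 normoxia at an adjusted p under 0.05, as 1 pair of bars per class, with the dark part for genes with differences of 1 or more on the log2 scale. Genes not seen in R26 hypoxia make the tallest bars (1939 and 1986), and the last pair holds the 374 and 513 genes called against normoxia but not against R26 hypoxia.

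The kept genes did not all keep the same share of their change. Of the 842 kept higher genes, 447 were not called between the HIF1a-ko and the control cells in hypoxia, with a median log2 fold change over normoxia of 0.42 in each. A missing call does not show that the levels were equal. A further 140 lay nearer to normoxia with the Hif1a guide (median 0.45 against 1.05 in R26 hypoxia) and 255 lay farther from it (0.95 against 0.37). Of the 960 kept lower genes, 535 were not called (medians -0.40 and -0.38), 117 lay nearer to normoxia (-0.30 against -0.64) and 308 lay farther (-0.75 against -0.30). The nearer and farther genes were sorted by the call between the hypoxic groups, which fixes the direction in which their medians differ. Among 395 genes that R26 hypoxia raised by 1 or more on the log2 scale, 154 were still above normoxia with the Hif1a guide, 202 were not called and 39 were below it. Among the 211 genes that it lowered by as much, 99 were still below normoxia, 83 were not called and 29 were above it.

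The hypoxia genes outside glycolysis showed all of these outcomes. Of 36 known HIF targets, R26 hypoxia raised 34, with a median log2 fold change of 1.40. In HIF1a-ko hypoxia 19 of the 36 were above normoxia and 7 below it, with a median of 0.37, and 18 of the 19 were kept from hypoxia. The promoters of this list often hold the core of the hypoxia response element, the site HIF binds. ACGTG or GCGTG, on either strand, was found in 23 of 27 windows available (85.2%, 250 bases before to 50 after the RefSeq start), against 60.3% of 11972 windows of all genes tested. A high share is not particular to HIF targets. In the other gene lists it ran from 25% (fibroblast surface and identity) to 100% (cytosolic aminoacyl-tRNA synthetases), with 86.7% in the list of TGF-beta, BMP and activin signalling. A match is a description of the letters and no evidence of binding. Either core was found in 63.2% of windows of the kept higher class and in 60.6% of the lower genes that ran opposite to R26 hypoxia. Vegfa, which kept part of its rise, had 0 matches in its window, whereas Ldha, which was not called over normoxia, had 7. A pair of promoters of genes that kept part of their hypoxic rise is shown, the 250 bases before the start in RefSeq on GRCm38.p6, read 5′ to 3′ on the gene's strand with the matches to either core in capitals. Ankrd37 (chr8:45999851-46000100, minus strand) has 4 matches and P4ha2 (chr11:54100674-54100923, plus strand) has 3.
Ankrd37: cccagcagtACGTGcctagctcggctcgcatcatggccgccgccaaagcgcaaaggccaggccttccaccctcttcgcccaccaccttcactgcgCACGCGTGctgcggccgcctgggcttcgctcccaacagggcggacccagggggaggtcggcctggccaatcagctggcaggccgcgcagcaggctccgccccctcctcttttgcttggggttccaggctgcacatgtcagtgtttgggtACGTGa
P4ha2: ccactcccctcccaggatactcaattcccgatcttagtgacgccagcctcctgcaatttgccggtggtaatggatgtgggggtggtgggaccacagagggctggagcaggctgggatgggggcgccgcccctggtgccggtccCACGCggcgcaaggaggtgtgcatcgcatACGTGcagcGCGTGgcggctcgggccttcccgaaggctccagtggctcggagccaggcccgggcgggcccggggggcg

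Ero1l, an oxidase that forms disulphide bonds in the endoplasmic reticulum, kept its rise in full. It was read at 55.5, 51.2 and 57.1 CPM in normoxia, 161, 158 and 179 CPM in R26 hypoxia, and 166, 160 and 159 CPM in HIF1a-ko hypoxia, with no overlap between the normoxia and HIF1a-ko libraries (2.96-fold, log2 fold change 1.56 ± 0.06, adjusted p = 1.94e-07). The difference between the HIF1a-ko and the R26 cells in hypoxia was -0.04 ± 0.06 on the log2 scale (adjusted p = 0.629). Vegfa, the vessel growth factor, rose from 160, 159 and 135 CPM to 334, 322 and 310 CPM, 2.13-fold (log2 fold change 1.09 ± 0.08, adjusted p = 6.23e-06), and reached 421, 424 and 362 CPM in R26 hypoxia. All 3 HIF1a-ko libraries lay above every normoxia library and below every R26 hypoxia library.

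P4ha2, a subunit of the enzyme that hydroxylates prolines in collagen, kept a smaller part of its rise. It stood at 80.7, 79.9 and 75.7 CPM in normoxia, 361, 346 and 345 CPM in R26 hypoxia and 139, 144 and 151 CPM in HIF1a-ko hypoxia (1.84-fold over normoxia, log2 fold change 0.88 ± 0.05, adjusted p = 7.72e-07). Ankrd37, an ankyrin repeat gene, stood at 2.87, 2.65 and 2.09 CPM against 5.31, 5.68 and 6.43 CPM, a log2 fold change of 1.22 ± 0.17 (adjusted p = 0.00036), with 15.5 to 20.9 CPM in R26 hypoxia. Egln3, an oxygen-sensing prolyl hydroxylase, stood at 3.12, 2.58 and 1.5 CPM against 4.55, 5.64 and 5.66 CPM, a log2 fold change of 1.20 ± 0.22 (adjusted p = 0.00171), with 40.3 to 43 CPM in R26 hypoxia. For each of these 3 genes the normoxia, HIF1a-ko and R26 hypoxia libraries formed 3 ranges that did not overlap. Slc2a1, the glucose transporter GLUT1, was also between its normoxia and R26 hypoxia levels, with a log2 fold change of 0.53 ± 0.07 over normoxia (adjusted p = 0.00021).

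Other targets returned to normoxia or passed below it. Slc16a3, which exports lactate, stood at 29.2, 29.4 and 25.7 CPM in normoxia and 31.2, 30.2 and 31.5 CPM in HIF1a-ko hypoxia, against 258 to 290 CPM in R26 hypoxia. Its log2 fold change over normoxia was 0.14 ± 0.07 (adjusted p = 0.126). Pdk1, a pyruvate dehydrogenase kinase, fell from 43.4, 46.4 and 44.2 CPM in normoxia to 31, 29.3 and 28.5 CPM in HIF1a-ko hypoxia. This was 1.51-fold lower (log2 fold change -0.59 ± 0.05, adjusted p = 9.39e-06), whereas R26 hypoxia had 293, 299 and 307 CPM. The HIF1a-ko range of Pdk1 lay below the normoxia range, and the R26 hypoxia range far above it. The other 6 targets that R26 hypoxia raised and that lay below normoxia with the Hif1a guide were Egln1, Plod2, Kdm3a, Mxi1, Zfp395 and Ccng2, with log2 fold changes from -0.88 (Zfp395) to -0.17 (Ccng2). Egln1, the main prolyl hydroxylase that marks HIF alpha subunits, fell by 0.19 ± 0.05 on the log2 scale (adjusted p = 0.0148), a call that was lost without normoxia 2, HIF1a-ko 1 or HIF1a-ko 2 (adjusted p from 0.0583 to 0.0849). Stc2, a secreted glycoprotein, was the 1 target above normoxia that R26 hypoxia had not raised, at 0.904, 1.25 and 1.09 CPM in normoxia against 3.82, 4.52 and 3.87 CPM (log2 fold change 1.90 ± 0.29, adjusted p = 0.000642).

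Of 21 glycolysis genes, R26 hypoxia raised 19 (median log2 fold change 1.61). With the Hif1a guide 9 were above normoxia and 4 below, with a median of 0.14. Pgk1, which makes the first ATP of the pathway, had the largest rise that was kept, from 327, 328 and 260 CPM to 585, 626 and 652 CPM (log2 fold change 1.03 ± 0.10, adjusted p = 3.16e-05), against 2210 to 2605 CPM in R26 hypoxia. Hk2, which traps glucose in the cell, had a log2 fold change of 0.76 ± 0.09 (adjusted p = 0.000135), and Pfkp, a phosphofructokinase isoform, one of 0.65. Ldha, which turns pyruvate into lactate, stood at 419, 426 and 378 CPM in normoxia and 430, 406 and 466 CPM in HIF1a-ko hypoxia, ranges that overlap, against 1388 to 1555 CPM in R26 hypoxia (log2 fold change over normoxia 0.09 ± 0.07, adjusted p = 0.348). Below normoxia lay Hk1 (log2 fold change -0.46) and Pfkm (-0.22), both raised by R26 hypoxia, and Eno2 (-0.53) and Pfkfb4 (-0.28), which were not called in R26 hypoxia. The 4 became 2 without normoxia 2 or HIF1a-ko 1. Either core was found in 14 of 21 promoter windows of this list (66.7%), near the share of all genes.

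**Figure D2:**
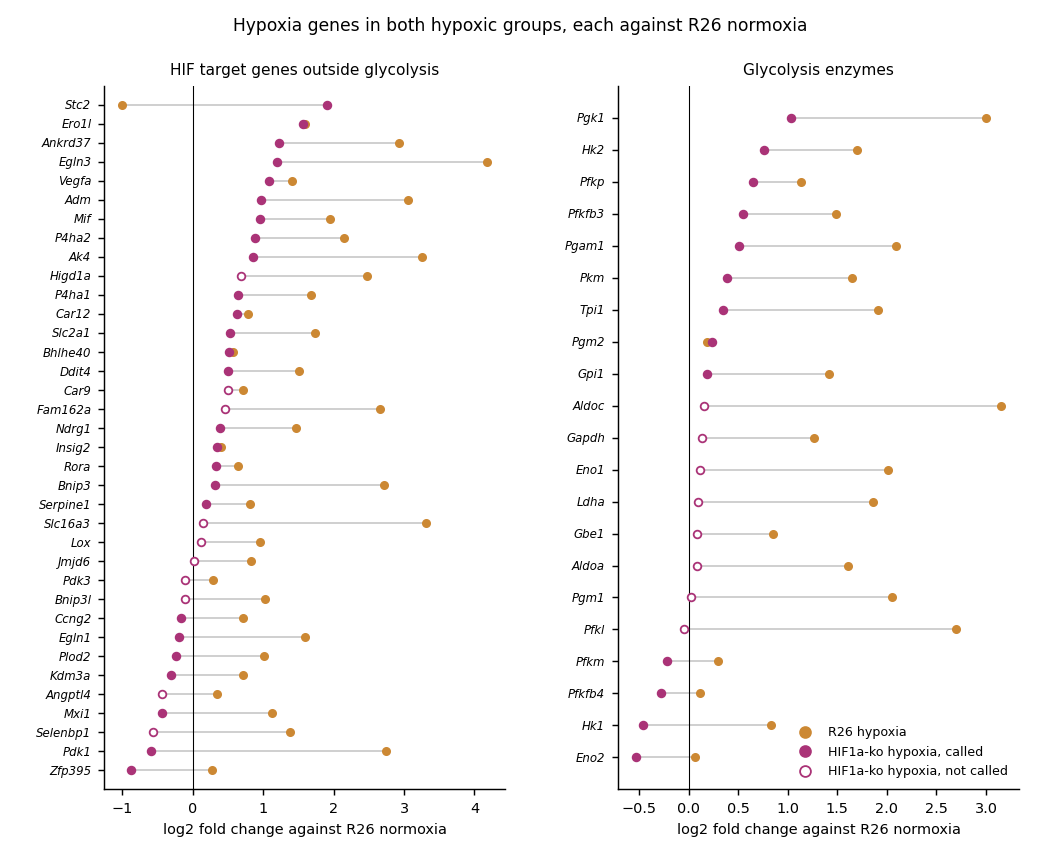
Log2 fold change over R26 normoxia (x axis) in R26 hypoxia (orange) and in HIF1a-ko hypoxia (purple, open where not called), 1 row per gene, for 36 HIF targets on the left and 21 glycolysis genes on the right, with no error bars. Ero1l has both points together at 1.60 and 1.56, Pdk1 has them at 2.75 and -0.59, and Stc2 at -1.0 and 1.90.

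Among 12 tested genes that encode HIF subunits and their regulators, 2 were higher and 4 lower (median log2 fold change -0.08). Hif1a, Egln1, Egln2 (-0.40) and Vhl (-0.19) were lower, and Egln3 and Arnt2 (0.18) higher, and the 2 became 1 without normoxia 1. The call of Vhl, the ligase that binds hydroxylated HIF alpha, was lost without normoxia 3 (adjusted p = 0.0506) or HIF1a-ko 3 (0.0534). Jumonji histone demethylases, which use oxygen and are partly HIF targets, were lower in 9 of 15 and higher in 1 (median -0.23). R26 hypoxia had raised 9 of the 15, not all of them the same genes. Of the 9 lower genes, 5 ran opposite to R26 hypoxia, 3 were not seen there and 1 was kept lower. The higher count was 2 without HIF1a-ko 1. Kdm7a had the largest difference, from 33.3, 36.6 and 43.7 CPM to 21.5, 21.5 and 21 CPM (log2 fold change -0.83 ± 0.11, adjusted p = 0.000219).

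Most cell division genes were higher, and most of them were not raised in R26 hypoxia. Of 25 genes of mitosis and the spindle, 25 were higher than in normoxia, against 19.9% of all genes, with a median log2 fold change of 2.26, and 19 of them were not called in R26 hypoxia (median of the list there 0.19). The other 6, Mki67, Ccnb2, Kif23, Cenpf, Prc1 and Ect2, were also raised in R26 hypoxia. Of 30 genes that license and copy DNA, 28 were higher and 0 lower (median 1.34), and 19 of the 28 were lowered by R26 hypoxia, where the median was -0.36. The 2 genes not called were Gins4 (log2 fold change 0.20) and Orc6 (-0.04), and Pold1, a polymerase subunit, was the 1 gene kept from hypoxia.

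Mki67, a nuclear protein of dividing cells, stood at 80.6, 72.4 and 92.2 CPM in normoxia, 103, 99.9 and 128 CPM in R26 hypoxia and 406, 388 and 415 CPM in HIF1a-ko hypoxia (4.93-fold over normoxia, log2 fold change 2.30 ± 0.11, adjusted p = 4.44e-07). Bub1, a kinase of the spindle checkpoint, stood at 11.1, 9.34 and 11.2 CPM in normoxia against 67.8, 64.7 and 75.2 CPM (6.55-fold, log2 fold change 2.71 ± 0.12, adjusted p = 3.59e-07). Both genes had their 3 HIF1a-ko libraries far above all 6 R26 libraries. Mcm5, a subunit of the replicative helicase, stood at 34.3, 34.7 and 37.7 CPM in normoxia, 19.1, 17.1 and 20.5 CPM in R26 hypoxia and 122, 117 and 135 CPM in HIF1a-ko hypoxia (3.5-fold over normoxia, log2 fold change 1.81 ± 0.08, adjusted p = 3.07e-07). Cdc6, which loads that helicase on DNA, stood at 4.61, 3.93 and 3.88 CPM, 2.96, 2.77 and 2.68 CPM, and 18, 18 and 23 CPM in the same order (4.76-fold over normoxia, adjusted p = 8.8e-07). For Mcm5 and Cdc6 the order of the groups was R26 hypoxia lowest, normoxia next and HIF1a-ko hypoxia highest, with no overlap.

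The promoters of Mcm5 and Cdc6 are shown because both genes ran opposite to R26 hypoxia and because E2F factors are known to drive replication genes in late G1. The E2F site was searched as TTTCCCGC or TTTGGCGC on either strand. It was found in 10 of 24 windows of the replication list (41.7%), in 0 of 21 windows of the mitosis list and in 2.87% of windows of all genes tested. The 250 bases before the RefSeq start are given 5′ to 3′ on GRCm38.p6, with the match in capitals. The match lies 138 bases before the start in Cdc6 (chr11:98907901-98908150, plus strand) and 149 bases before it in Mcm5 (chr8:75109259-75109508, plus strand).
Cdc6: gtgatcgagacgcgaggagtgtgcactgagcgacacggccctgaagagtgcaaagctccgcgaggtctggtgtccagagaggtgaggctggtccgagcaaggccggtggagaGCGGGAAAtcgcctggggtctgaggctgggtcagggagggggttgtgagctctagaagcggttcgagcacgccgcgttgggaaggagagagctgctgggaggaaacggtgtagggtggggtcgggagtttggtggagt
Mcm5: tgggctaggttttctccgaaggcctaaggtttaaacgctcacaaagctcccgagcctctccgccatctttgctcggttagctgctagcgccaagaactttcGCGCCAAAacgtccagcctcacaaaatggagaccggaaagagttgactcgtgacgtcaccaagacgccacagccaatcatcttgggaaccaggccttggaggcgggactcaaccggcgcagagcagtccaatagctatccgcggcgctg

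The regulators of the cycle moved in both directions. Of 20 cyclins, E2F and RB members and cyclin-dependent kinase inhibitors, 12 were higher and 3 lower (median log2 fold change 0.63). E2f8, a late E2F, rose from 2.71, 2.53 and 2.99 CPM to 20.7, 17.5 and 19.5 CPM (6.94-fold, log2 fold change 2.79 ± 0.13, adjusted p = 3.18e-07) and stood at 2.31 to 3.17 CPM in R26 hypoxia. E2f7 (2.16), Ccne2 (1.84), Rbl1 (1.81) and E2f2 (1.72) were higher too. Ccnd1, the cyclin of early G1, had a log2 fold change of 0.77 and was lowered by R26 hypoxia. The 3 lower genes were the inhibitors Cdkn1a (-0.51 ± 0.04, adjusted p = 7.43e-06), Cdkn1c (-1.39) and Cdkn2a (-0.44). Of 21 p53 targets, Cdkn1a among them, 10 were higher and 4 lower (median 0.27), with Gdf15, a stress cytokine, highest at 1.33 and Plk3 lowest at -0.63. In the network of MYC and its partners, 3 of 12 were higher and 7 lower (median -0.31). Myc itself was higher (0.46 ± 0.08, adjusted p = 0.0015), as was Mxd3 (2.12), whereas Mycn (-1.34), Mnt (-0.71) and Mxd4 (-0.70) were lower.

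**Figure D3:**
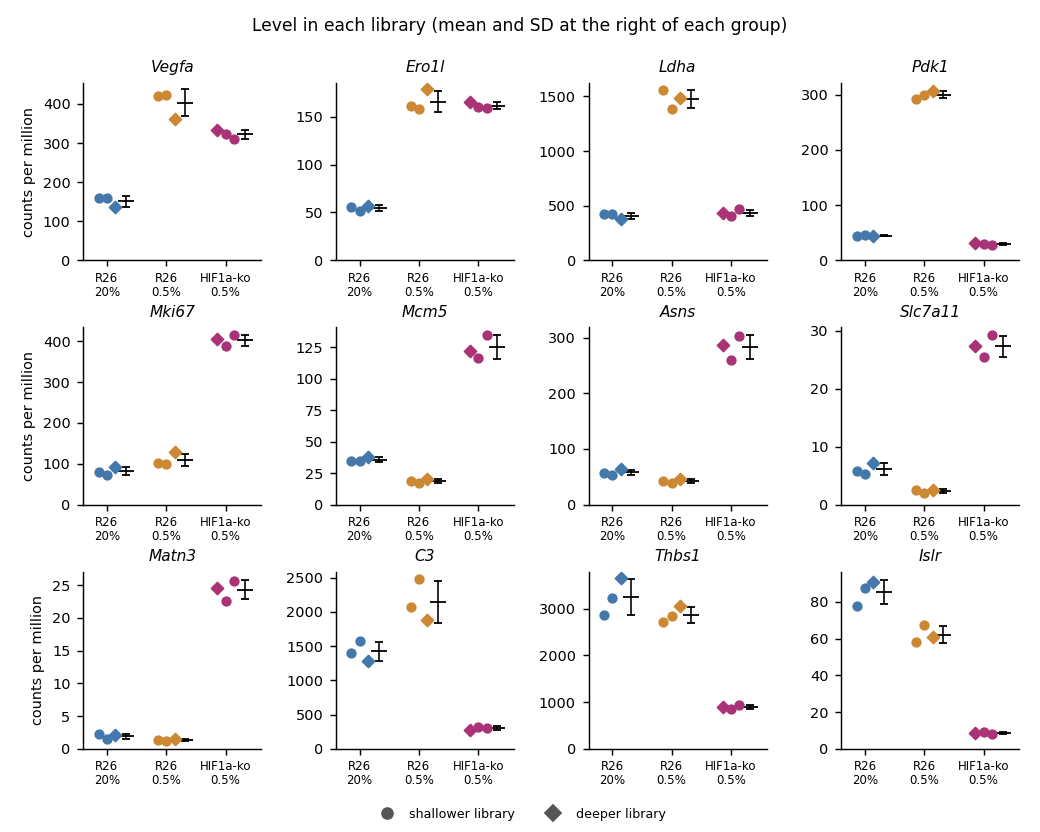
CPM (y axis, from 0) of 12 genes in each of the 9 libraries, grouped as R26 at 20% oxygen, R26 at 0.5% and HIF1a-ko at 0.5%, with 1 marker per library, diamonds for the 3 deeper libraries, and mean and SD (n = 3) beside each group. Ero1l keeps its hypoxic level in the HIF1a-ko libraries, Ldha lies at its normoxia level there, Pdk1 lies below it, Mcm5, Asns and Slc7a11 are lowest in R26 hypoxia and highest in HIF1a-ko hypoxia, and C3, Thbs1 and Islr are lowest in HIF1a-ko hypoxia.

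Most genes of the integrated stress response were higher in HIF1a-ko hypoxia. This pathway slows translation when amino acids are scarce or proteins misfold, and it works through the factor ATF4, which raises genes for amino acid synthesis and import. Of 19 tested regulators and targets, 16 were higher and 1 lower (median log2 fold change 1.33), while the median in R26 hypoxia was -0.14. Atf4 RNA rose from 191, 186 and 168 CPM to 374, 386 and 420 CPM (2.16-fold, log2 fold change 1.11 ± 0.07, adjusted p = 3.15e-06). Trib3, a pseudokinase that ATF4 induces, rose from 7.55, 7.53 and 9.77 CPM to 64.7, 57.6 and 62.7 CPM (7.36-fold, log2 fold change 2.88 ± 0.11, adjusted p = 1.94e-07) and stood at 8.33, 8.42 and 9.66 CPM in R26 hypoxia, where it overlapped normoxia. Chac1, which degrades glutathione, had a log2 fold change of 2.81 ± 0.16 (adjusted p = 1.32e-06). The lower gene was Cebpb (-1.07 ± 0.21, adjusted p = 0.00279), and Atf3 (0.93 ± 0.36) and Ppp1r15a (0.17 ± 0.09) were not called.

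Asns, which makes asparagine, stood at 56.7, 53.1 and 63.2 CPM in normoxia, 43.1, 38.3 and 45.1 CPM in R26 hypoxia and 287, 261 and 303 CPM in HIF1a-ko hypoxia (4.91-fold over normoxia, log2 fold change 2.30 ± 0.09, adjusted p = 1.94e-07). Slc7a11, which imports cystine for glutathione, stood at 5.83, 5.34 and 7.23 CPM, 2.5, 2.01 and 2.49 CPM, and 27.3, 25.4 and 29.2 CPM in the same order (4.39-fold over normoxia, log2 fold change 2.13 ± 0.12, adjusted p = 1.04e-06). Both were lowest in R26 hypoxia and highest in HIF1a-ko hypoxia with no overlap. Their promoters are shown with matches to TGATGNAA, the usual core of the site that ATF4 and C/EBP proteins bind, in capitals on either strand. The site was found in 2.31% of windows of all genes tested, in 5 of 17 windows of the stress response list (29.4%), in 5 of 12 of the tRNA synthetase list (41.7%) and in 2 of 10 of the transporter list (20%). In the list of serine and one-carbon folate enzymes it was found in 0 of 10 windows. Slc7a11 (chr3:50443614-50443863, minus strand) has 2 matches, 66 and 47 bases before the start, and Asns (chr6:7693210-7693459, minus strand) has 1 match 23 bases before it, again in the 250 bases before the RefSeq start on GRCm38.p6.
Slc7a11: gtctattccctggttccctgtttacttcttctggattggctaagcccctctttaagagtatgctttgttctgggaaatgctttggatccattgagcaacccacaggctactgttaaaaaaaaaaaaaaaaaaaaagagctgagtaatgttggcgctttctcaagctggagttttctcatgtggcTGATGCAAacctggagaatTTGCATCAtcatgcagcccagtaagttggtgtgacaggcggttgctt
Asns: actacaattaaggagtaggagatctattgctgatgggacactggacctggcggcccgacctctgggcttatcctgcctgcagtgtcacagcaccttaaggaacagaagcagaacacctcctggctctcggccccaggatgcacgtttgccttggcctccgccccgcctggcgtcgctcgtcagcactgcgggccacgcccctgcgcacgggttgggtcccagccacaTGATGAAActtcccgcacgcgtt

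Related lists held many higher genes, but the lists share members. Psat1, Mthfd2 and Cars also count in the stress response list, and Slc7a11 also counts among the redox genes below. Gdf15 and Sesn2 of the p53 targets and Stc2 of the HIF targets count in the stress response list too. Of 15 amino acid transporters, 8 were higher and 1 lower (median log2 fold change 0.68), and 5 of the 8 were lowered by R26 hypoxia. Slc7a5, a carrier of large neutral amino acids, rose from 73.1, 79.8 and 86.7 CPM to 295, 235 and 280 CPM (3.38-fold, log2 fold change 1.76 ± 0.09, adjusted p = 8.06e-07), against 29.1 to 32.4 CPM in R26 hypoxia. Of 12 enzymes of serine synthesis and one-carbon folate metabolism, 10 were higher and 2 lower (median 1.05). Mthfd2, a mitochondrial folate enzyme, rose from 25, 22.5 and 24.2 CPM to 111, 106 and 124 CPM (4.75-fold, log2 fold change 2.25 ± 0.08, adjusted p = 1.76e-07). Aldh1l2 (2.37), Psat1 (2.16), Psph (1.90) and Shmt2 (1.46) were higher as well, and Gldc (-0.46) was lower. Of 20 cytosolic aminoacyl-tRNA synthetases, which charge tRNAs, 16 were higher and 0 lower (median 0.79), and 9 of them ran opposite to R26 hypoxia, where the median was -0.25. Cars (1.45), Aars (1.22), Mars (1.16), Lars (1.15) and Iars (1.12) led this list. The other 4 synthetases were not called.

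Of 21 genes for folding in the endoplasmic reticulum, 17 were higher and 2 lower (median log2 fold change 0.50, against 0.16 in R26 hypoxia). Hspa5, the chaperone BiP, stood at 397, 384 and 389 CPM in normoxia, 389 to 409 CPM in R26 hypoxia and 748, 782 and 787 CPM in HIF1a-ko hypoxia (1.98-fold over normoxia, log2 fold change 0.99 ± 0.04, adjusted p = 2.24e-07). Ero1lb (1.55), Hsp90b1 (0.71) and Hyou1 (0.69) were also higher. Xbp1 (-0.14) and Dnajb9 (-0.23) were the 2 lower members, and both or either call was lost without HIF1a-ko 1, HIF1a-ko 3, normoxia 2 or normoxia 3. Of 25 ribosome biogenesis genes, 9 were higher and 3 lower (median 0.21, against -0.57 in R26 hypoxia), and 8 of the 9 ran opposite to R26 hypoxia, Dkc1 (0.69) most. With the 6 shallower libraries only, 15 were higher, and without R26 hypoxia 3, 5 were lower.

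Redox genes split. Of 21 genes of the NRF2, glutathione and thioredoxin systems, 9 were higher and 4 lower (median log2 fold change 0.15, against -0.43 in R26 hypoxia), and 8 of the 9 ran opposite to R26 hypoxia. Hmox1, which breaks down haem, stood at 183, 186 and 198 CPM in normoxia, 109 to 115 CPM in R26 hypoxia and 373, 401 and 292 CPM in HIF1a-ko hypoxia (log2 fold change over normoxia 0.91 ± 0.10, adjusted p = 7.1e-05). Taldo1 of the pentose phosphate pathway was higher (0.77) and G6pdx, the first enzyme of that pathway, lower (-0.74).

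RNA from the mitochondrial genome stayed below normoxia. It took 1.65% to 1.78% of counts in R26 normoxia, 0.764% to 0.811% in R26 hypoxia and 1.17% to 1.27% in HIF1a-ko hypoxia. Of 13 mitochondrially encoded messenger RNAs, 7 were lower, all kept from hypoxia, and 1 was higher (median log2 fold change -0.52, against -1.11 in R26 hypoxia). mt-Cytb, the cytochrome b of complex III, stood at 2834, 2929 and 2868 CPM in normoxia, 871, 887 and 799 CPM in R26 hypoxia and 1449, 1532 and 1592 CPM in HIF1a-ko hypoxia (1.89-fold below normoxia, log2 fold change -0.92 ± 0.06, adjusted p = 1.85e-06). Many of these genes have copies in the nuclear genome, and their counts are uncertain where most of their 50-base words are shared with other annotated genes. The shared part was 98.3% in mt-Nd3, the higher one, 98% to 100% in mt-Nd4l, mt-Atp6, mt-Co2 and mt-Co3, which were not called, and 62.4% and 51.3% in mt-Nd4 and mt-Co1, which were lower. In the other 5 lower genes, mt-Cytb among them, it was at most 8.08%. The count of higher members was 3 with the shallower libraries only and 2 with depth as a term.

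Most nuclear genes for respiration were not called. Of 34 nuclear genes of the respiratory chain, 8 were higher and 0 lower (median log2 fold change 0.26), a share of higher genes near the 19.9% among all genes tested. Cox5a (0.77) and Atp5b (0.57) were among the higher genes. This count depended on the libraries, being 20 with the 6 shallower libraries, 24 with depth as a term, 13 without R26 hypoxia 3 and 5 without normoxia 2. Of 18 genes of the tricarboxylic acid cycle, 6 were higher and 2 lower (median 0.12), and Idh3a, a subunit of isocitrate dehydrogenase, was highest (0.72 ± 0.05, adjusted p = 2.76e-06). With the shallower libraries only, 10 were higher and 4 lower, with depth as a term 6 were lower, and without normoxia 2, normoxia 3, HIF1a-ko 1 or HIF1a-ko 3, 1 was lower. Of 24 genes of cholesterol synthesis and uptake, R26 hypoxia lowered 22 (median -0.69), and HIF1a-ko hypoxia left 6 below normoxia and 1 above (median -0.07). Hmgcs1, an early enzyme of the pathway, stood at 168, 163 and 166 CPM in normoxia and 111, 99 and 121 CPM in HIF1a-ko hypoxia, against 71.2 to 79.2 CPM in R26 hypoxia (log2 fold change over normoxia -0.58 ± 0.07, adjusted p = 0.000155). The higher gene was Srebf2 (0.24), the transcription factor of the pathway, a count that ran from 0 (without normoxia 1, normoxia 2 or HIF1a-ko 1) to 3 (without HIF1a-ko 2). Of 15 fatty acid synthesis genes, 3 were higher and 5 lower, with Fasn, the fatty acid synthase, at -0.69 and Elovl6 at -0.67. Autophagy and mitophagy genes were lower in 13 of 23 and higher in 3 (median -0.20). Pink1, a kinase that marks damaged mitochondria, fell from 92.6, 95.1 and 87.9 CPM to 50.4, 42.9 and 43.5 CPM (log2 fold change -1.01 ± 0.07, adjusted p = 4.7e-06).

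Matrix genes differed in both directions. Of 19 collagen chains, 7 were higher and 8 lower (median log2 fold change -0.05). Col1a1 stood at 4565, 5104 and 5542 CPM in normoxia, 5784 to 6736 CPM in R26 hypoxia and 3974, 3611 and 3732 CPM in HIF1a-ko hypoxia (1.34-fold below normoxia, log2 fold change -0.43 ± 0.09, adjusted p = 0.00367). Col1a2, the other chain of collagen I, was lower too (-0.65 ± 0.06, adjusted p = 1.69e-05), as were Col14a1 (-1.95) and Col15a1 (-1.27). Col7a1 (1.14), Col8a1 (0.85) and Col12a1 (0.78) were higher, and the first and last of these were kept from hypoxia. Of 19 genes that modify and cross-link collagen, 7 were higher and 9 lower (median -0.14, against 0.40 in R26 hypoxia). P4ha1 (0.65) and P4ha2 kept part of their rise, whereas Loxl1 (-1.13), a lysyl oxidase, was below normoxia and R26 hypoxia lay above it.

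Of 25 matricellular and glycoprotein genes, 7 were higher and 8 lower (median 0.02). Thbs1, a thrombospondin that binds many matrix proteins and growth factors, fell from 2876, 3224 and 3653 CPM to 893, 848 and 947 CPM (3.63-fold, log2 fold change -1.86 ± 0.09, adjusted p = 5.01e-07) and stood at 2712 to 3059 CPM in R26 hypoxia. Fn1, fibronectin, one of the most abundant messages, fell from 14512, 14884 and 14689 CPM to 8848, 9038 and 8859 CPM (1.65-fold, log2 fold change -0.72 ± 0.05, adjusted p = 6.18e-06) and Tnc, tenascin C, by 1.37 ± 0.05 on the log2 scale (adjusted p = 1.94e-07). All 3 were not seen in R26 hypoxia. Matn3, a matrilin of cartilage, had the largest log2 fold change of all genes named here, from 2.24, 1.51 and 2.09 CPM to 24.6, 22.6 and 25.6 CPM (12.3-fold, 3.62 ± 0.13, adjusted p = 1.9e-07). Small leucine-rich proteoglycans, which bind collagen fibrils, were lower in 5 of 10 and higher in 0 (median -0.74), with 1 higher without normoxia 3. Dcn, decorin, kept its hypoxic fall in full, at 659, 721 and 821 CPM in normoxia, 311 to 379 CPM in R26 hypoxia and 358, 369 and 300 CPM in HIF1a-ko hypoxia (log2 fold change -1.10 ± 0.11, adjusted p = 3.64e-05), and its difference between both hypoxic groups was -0.03 ± 0.11 (adjusted p = 0.852).

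Contractile and myofibroblast genes were lower in 13 of 20 and higher in 0 (median log2 fold change -0.42), and 9 of the 13 were kept from hypoxia. Acta2, smooth muscle actin and the usual marker of activated stellate cells, stood at 1553, 1514 and 1494 CPM in normoxia, 838, 736 and 786 CPM in R26 hypoxia and 1077, 1075 and 1276 CPM in HIF1a-ko hypoxia (1.33-fold below normoxia, log2 fold change -0.41 ± 0.08, adjusted p = 0.00176), with 3 ranges that did not overlap. Lmod1 (-1.23), Cdh11 (-1.21) and Myl9 (-0.97) had the largest differences. Of 22 genes of fibroblast surface and identity, 2 were higher and 6 lower (median -0.05). Islr, a marker of mesenchymal cells, fell from 77.9, 87.4 and 91 CPM to 8.75, 9.16 and 7.98 CPM (9.89-fold, log2 fold change -3.31 ± 0.09, adjusted p = 7.24e-08), and stood at 58.2 to 67.2 CPM in R26 hypoxia. Pdgfra, the receptor of PDGF, stood at 485, 482 and 493 CPM in normoxia, 667 to 713 CPM in R26 hypoxia and 200, 216 and 220 CPM in HIF1a-ko hypoxia (2.29-fold below normoxia, log2 fold change -1.20 ± 0.05, adjusted p = 2.01e-07). The higher count of this list was 6 with the shallower libraries only, 8 with depth as a term and 1 without normoxia 3 or HIF1a-ko 3.

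Several complement genes were lower, C3 most of all. Of 17 complement genes tested, 8 were lower and 1 higher (median log2 fold change -0.84), and the higher one, C3ar1, lost its call in 5 of the 6 fits that left out a normoxia or a HIF1a-ko library. C3, the central component, stood at 1405, 1571 and 1289 CPM in normoxia, 2068, 2476 and 1880 CPM in R26 hypoxia and 277, 325 and 307 CPM in HIF1a-ko hypoxia (4.69-fold below normoxia, log2 fold change -2.23 ± 0.12, adjusted p = 6.77e-07). Cd55, which protects cells from complement, fell from 181, 180 and 212 CPM to 44.2, 43.3 and 43.7 CPM (log2 fold change -2.13 ± 0.10, adjusted p = 3.94e-07). C1s1, a protease of the classical pathway, fell from 759, 784 and 772 CPM to 219, 233 and 205 CPM (-1.82 ± 0.06). C3 ran opposite to R26 hypoxia, whereas the latter 2 were not called there.

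Of 25 inflammatory fibroblast markers, 4 were higher and 8 lower (median log2 fold change -0.01), and 5 were lower without normoxia 1 or HIF1a-ko 1. Il6 was scarce, at 1.4, 1.16 and 0.901 CPM in normoxia, 2.13 to 2.78 CPM in R26 hypoxia and 0.75, 1.23 and 1.08 CPM in HIF1a-ko hypoxia, where it overlapped normoxia (log2 fold change -0.18 ± 0.26, adjusted p = 0.634), and its sign turned without HIF1a-ko 1. Cxcl12, a chemokine of fibroblasts, stood at 5131, 4960 and 4613 CPM in normoxia, 6243 to 6804 CPM in R26 hypoxia and 3991, 4169 and 4350 CPM in HIF1a-ko hypoxia (log2 fold change -0.23 ± 0.06, adjusted p = 0.0145). That call was lost without normoxia 1 (adjusted p = 0.0537) or HIF1a-ko 1 (0.0807). Il1r1, the receptor of interleukin 1, was lower (-1.37 ± 0.07, adjusted p = 4.4e-07), and Ptgs2, the inducible prostaglandin synthase, was kept higher (1.24 ± 0.10, adjusted p = 1.21e-05). Of 19 NF-kB subunits and feedback genes, 13 were lower and 2 higher (median -0.35). Tnfaip2 (-1.64) and Birc3 (-1.0) had the largest falls, and the 2 higher became 1 without normoxia 2, normoxia 3, HIF1a-ko 2 or HIF1a-ko 3.

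Interferon-stimulated genes were lower in 17 of 26 and higher in 0 (median log2 fold change -1.29, against -0.71 in R26 hypoxia). Ifit1, an antiviral RNA-binding protein, stood at 64.9, 43.6 and 48.7 CPM in normoxia and 8.68, 11.3 and 10.1 CPM in HIF1a-ko hypoxia. The R26 hypoxia libraries were split, with 71.7 CPM in library 1 and 8.16 and 8.22 CPM in libraries 2 and 3. The log2 fold change over normoxia was -2.39 ± 0.76 (adjusted p = 0.0301). That call was lost in each fit that left out a normoxia or HIF1a-ko library (adjusted p from 0.0501 to 0.0929). The count of 17 became 5 without normoxia 1 or HIF1a-ko 3, 6 without HIF1a-ko 1, 9 without HIF1a-ko 2 and 10 without normoxia 2, and it was 21 with the shallower libraries only. Of 11 genes of MHC class I presentation, 3 were lower and 1 higher (median -0.44), and 7 were lower with the shallower libraries only. Psmb10, a subunit of the immunoproteasome, was lowest at -1.05 and Erap1, a peptide trimming enzyme, highest at 0.54.

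Growth factor signalling genes were called lower more often than higher, where 19.9% of all genes tested were higher and 22.1% lower. Of 25 genes of TGF-beta, BMP and activin signalling, 4 were higher and 11 lower (median log2 fold change -0.18). Ltbp2, a latent TGF-beta binding protein, fell from 792, 843 and 921 CPM to 333, 293 and 340 CPM (-1.40 ± 0.08, adjusted p = 1.08e-06), Tgfbr2, a receptor, had -0.87 and Fst, which binds activin, 1.05. Of 23 PDGF, FGF and IGF genes, 2 were higher and 10 lower (median -0.18), and the 2 became 1 without normoxia 1 or normoxia 2, 4 with the shallower libraries only and 6 with depth as a term. Fgf2 (-1.36), Fgf10 (-1.19) and Pdgfra were lower, whereas R26 hypoxia lay above normoxia, and Igf1 (-1.08) was lower without a call in R26 hypoxia. Of 22 matrix proteases and their inhibitors, 5 were higher and 10 lower (median -0.09). Adamts5, which cuts proteoglycans, was kept higher at 111, 115 and 115 CPM against 35.7, 37.7 and 35.5 CPM (log2 fold change 1.65 ± 0.04, adjusted p = 7.24e-08). Mmp19 was lower, with a log2 fold change of -1.29. The 5 became 3 without normoxia 1, normoxia 2 or HIF1a-ko 2. Of 18 integrin subunits, 4 were higher and 4 lower (median -0.03), shares near those of all genes tested. Itga4 had the largest rise (1.69), a call that was lost without normoxia 1, normoxia 3 or HIF1a-ko 2. Itga6 (1.34), a laminin receptor subunit, was higher too. The higher count was 2 without normoxia 1 or HIF1a-ko 2, and the lower count was 1 or 2 without normoxia 3 or any 1 of the HIF1a-ko libraries. Of 15 retinoid genes, 5 were lower and 0 higher (median -0.17).

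**Figure D4:**
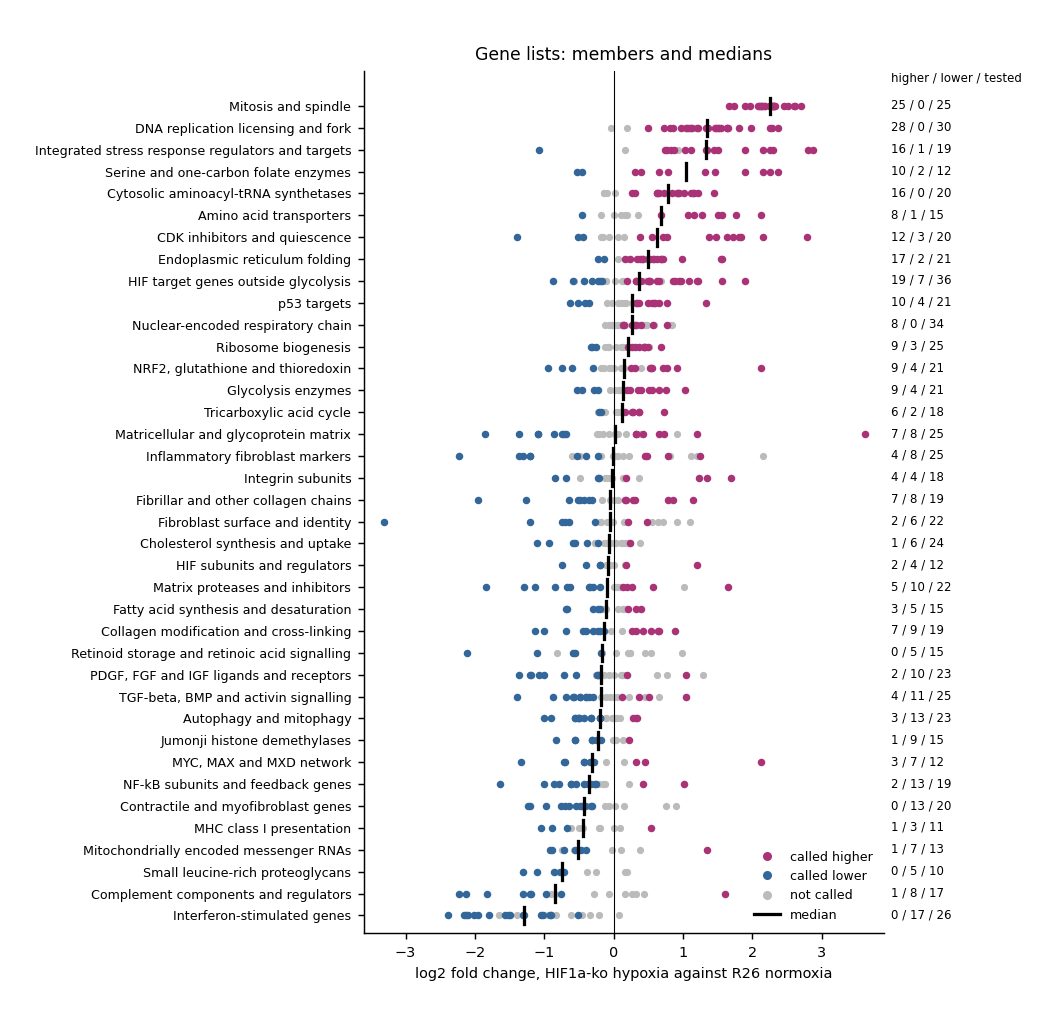
Log2 fold change of HIF1a-ko hypoxia over R26 normoxia (x axis) for the tested members of 38 gene lists, 1 row per list and 1 dot per gene, coloured by call, with a black bar at the list's median and the numbers called higher, called lower and tested on the right. Mitosis (25, 0 and 25) and replication (28, 0 and 30) lie to the right, interferon-stimulated (0, 17 and 26) and contractile genes (0, 13 and 20) mostly to the left, and glycolysis and collagens on both sides of 0.

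The genes that led each class, taken among genes whose log2 CPM averaged 3 or more and whose groups did not overlap, extend these lists. Chd5, a chromatin remodeller, was the highest of those not seen in R26 hypoxia, rising from 2.06, 2.23 and 2.03 CPM to 19.2, 21.5 and 19.8 CPM (9.63-fold, log2 fold change 3.27 ± 0.10, adjusted p = 1.03e-07). Fancd2, a protein of DNA crosslink repair (2.89 ± 0.14), Trib3, Chac1, E2f8 and Bub1 followed. The lowest of that class were Aox3, an aldehyde oxidase (-2.81 ± 0.11), Gdpd2 (-2.68 ± 0.11) and Tspan18, a tetraspanin (-2.67 ± 0.15). Among kept higher genes, 6 with log2 fold changes from 2.48 to 2.63 led, Spag5, Ect2, Cep55, Cenpf, Kif14 and Rdm1, and the first 5 of these act in mitosis or cytokinesis. Each of them had a smaller difference in R26 hypoxia. The kept lower genes were led by Islr, Tnnt2, a troponin (-2.77 ± 0.11), and Tnxb, tenascin X (-2.43 ± 0.12). Scara5, a ferritin receptor, stood at 52.2, 54.5 and 46.5 CPM in normoxia, 12.5, 17.6 and 9.26 CPM in R26 hypoxia and 9.94, 14.8 and 8.47 CPM in HIF1a-ko hypoxia, so that both hypoxic groups overlapped (log2 fold change over normoxia -2.21 ± 0.25, adjusted p = 7.88e-05). Opposite to R26 hypoxia, Matn3 and Pcdh19, a protocadherin (2.62 ± 0.09), were highest, and C3, Gpr153 (-2.13 ± 0.11) and Mfap2, a microfibril protein (-2.07 ± 0.09), lowest.

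**Figure D5:**
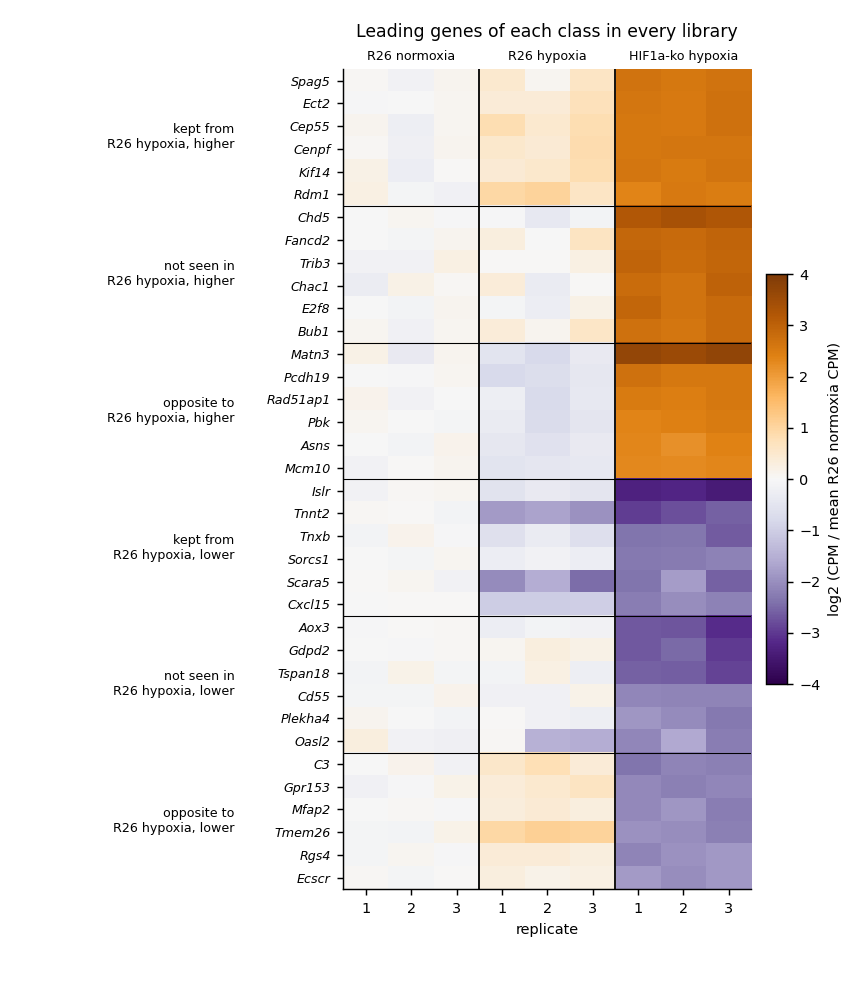
Log2 of each library's CPM over the mean R26 normoxia CPM (colour scale from -4 to 4) for the 6 leading genes of each of the 6 classes, 1 row per gene and 1 column per library. Chd5 and Aox3, not seen in R26 hypoxia, are pale in all 6 R26 columns, Tnnt2 and Scara5 are low in both hypoxic groups, and C3 and Tmem26 take opposite colours in them. The rows were chosen by these values, so the pattern is a description.

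Some named genes share much of their sequence with other annotated genes, and their counts are uncertain where the counting could split or drop such reads. Of the 50-base words in their transcripts, the shared part was 63.8% in Pgk1 (mostly with Pgk1-rs7), 55.1% in Loxl2, 53.9% in Phgdh, 51.5% in Ifit3, 50.4% in Bnip3, 48% in Gapdh, 37.8% in C1s1, 15.9% in Ldha, 15.6% in Gdpd2 and 13.6% in Ankrd37. It was 0.205% in Vegfa, 1.46% in Ero1l, 0.623% in Mki67, 0.158% in Mcm5 and 0 in Asns, Bub1, Matn3 and C3. The strand setting of the counting is not given in the sources used here, so reads from overlapping genes on opposite strands cannot be told apart either.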

How the data were processed

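Poly-A RNA libraries of 9 samples of mouse pancreatic stellate cells were deposited by the authors as read counts per Ensembl gene, whole numbers with no normalization. The labels do not state whether a group's 3 libraries were separate cultures. The p-values therefore reflect only the spread among these samples, and that spread may be technical. The tools listed are STAR, featureCounts, Trimmomatic, bcl2fastq 2.17 and DESeq2, with the build GRCm38, per the submitters' processing notes. Their roles and settings, the annotation release and the strand setting are not stated in those notes as used here. A symbol was found for 49056 of 49315 gene identifiers, and the others held at most 0.0178% of a library's counts. No 2 libraries of a group agreed within sampling noise (chi-square per degree of freedom from 6.73 to 69.9), and all 9 were counted.

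Differences per gene were tested in edgeR 4.0.16, R 4.3.3 (quasi-likelihood test, two-sided, TMM factors, filterByExpr, group as the only term, all 9 libraries in 1 fit so that they share an estimate of the spread), with Benjamini-Hochberg adjustment over 18211 genes. CPM use the TMM factors and do not correct for gene length, so levels of different genes were not compared. Every log2 fold change is HIF1a-ko hypoxia minus R26 normoxia unless another is named, with the SE of the fit. The 38 gene lists, 6 marker lists and the members were chosen with earlier results of these data known, and no list was tested as a set. Named genes were a fixed set of 22, the 10 highest and 10 lowest, the 6 leading genes of each class, and up to 5 called members of each list. Some genes under this rule are not reported here. Every other gene in the text was chosen after its values were seen, to complete a count or an example. Alternatives were DESeq2 1.42.0, other factors and filters, depth as a term, only the 6 shallower libraries, each library left out, the replicate number as a term, and stricter thresholds. Promoters came from RefSeq (GRCm38.p6), with a window for 11972 of 18205 genes.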

Additional observations from a re-analysis of the deposited data

How the results depend on the processing

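No gene called here was called in the opposite direction under any alternative fit, and 46.9% to 53.1% of the called genes were higher in each. Of 226 named genes, 213 to 226 kept both their side of the threshold and the sign of their log2 fold change in each alternative that tested all of them. At a log2 fold change of at least 1 in every contrast that defines a class, 1012 genes were higher and 738 lower, 93 and 68 were kept, 681 and 432 not seen in R26 hypoxia, and 17 and 18 opposite to it (higher and lower genes). At an adjusted p under 0.01, 418 and 463 were kept and 219 and 293 opposite. With depth as a term, 1340 and 1554 were kept and 898 and 930 opposite. Without a filter on low counts, 589 were kept lower. Stricter thresholds leave fewer called genes by construction, and they also move genes between classes. A gene called in R26 hypoxia only below the stricter threshold then counts as not seen there. In the main fit, 637 higher and 376 lower genes not seen in R26 hypoxia had a log2 fold change of at least 1 over normoxia. The cause of the other shifts was not tested. With a library left out, 3125 to 3919 genes were higher and 3079 to 4284 lower, 584 to 812 kept higher, 617 to 903 kept lower, 1752 to 2097 and 1515 to 2037 not seen in R26 hypoxia, and 308 to 471 and 403 to 533 opposite. The lowest values came without normoxia 2 for the kept lower genes (617) and without normoxia 1 (308) or normoxia 2 (313) for the opposite higher genes. Among named genes, the log2 fold change of Epas1 turned to -0.15 without HIF1a-ko 2, -0.07 without HIF1a-ko 3 and -0.22 without normoxia 3 (up to 0.65 without HIF1a-ko 1), and that of Il6 to 0.08 without HIF1a-ko 1 (down to -0.37 without normoxia 3), none of them called.

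The labels number the libraries, and whether these numbers pair them was not established. Deviations from the group means of same-numbered normoxia and HIF1a-ko libraries correlated at -0.616, 0.587 and -0.667 across genes. Not every library correlated best with its own number. The highest value, 0.837, joined the deeper libraries, normoxia 3 and HIF1a-ko 1, which carry different numbers. The depth split enters these values, so they cannot show whether the numbers pair the libraries. With the replicate number as a block, 3698 genes were higher and 4047 lower, and 871 and 980 were kept, 1939 and 1947 not seen in R26 hypoxia, and 514 and 609 opposite. In a block fit of the 6 libraries alone, 3121 were higher and 3371 lower.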
